A study of Mus musculus with 12 samples.

Results

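The contacts of 44 promoters were compared between mouse embryonic stem cells (ESCs) that had lost RING1B for 6 h and a Control line that kept it. All 842 interactions in the deposited table were members of this comparison, so that 842 of 842 are described. CaptureC measures how often a chosen promoter fragment, the bait, is ligated to other DpnII fragments after crosslinking, and reads pile up on fragments that lie close to it in the nucleus. Both groups were male E14 ESCs treated with 0.5 mM auxin for 6 h, with 3 biological replicates each that the authors merged into 1 value per interaction. The PRC1DEG line has the genotype Tir1; Ring1a-/-; Ring1bAID, which means that it carries the rice auxin receptor TIR1 at Rosa26, lacks Ring1a, and makes RING1B from both gene copies with an N-terminal auxin-inducible degron. The Control line carries TIR1 alone, and PRC1DEG cells were derived from it. Control cells therefore have both Ring1a and untagged Ring1b, and no PRC1DEG cells without auxin were measured in this experiment. The loss of RING1B, the deletion of Ring1a, the tag and the derivation of the line cannot be told apart in these values. The protein level of RING1B and the ESC state cannot be read from ligated DNA, so neither label was checked here.

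Polycomb repressive complex 1 (PRC1) is a histone H2A ubiquitin ligase built around RING1A or RING1B and a PCGF protein. Canonical PRC1 (cPRC1) contains PCGF2 in ESCs, binds H3K27me3 through a CBX subunit and includes PHC proteins that can polymerize. In ESCs it sits on CpG-rich promoters of silent developmental genes, many of which contact each other over long distances.

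The baits fell into 2 kinds. The authors' bait list names 24 promoters of classical Polycomb target genes, and the bait fragments of all 24 overlapped a site bound by RING1B and PCGF2. The other 20 baits are not in that list, were named here from the nearest annotated promoter, and 0 of them overlapped such a site. A contacted region is called a PCGF2 site where it overlaps a RING1B and PCGF2 peak, and an other site where it does not. An other site may still hold a RING1B peak that lacks PCGF2. The 842 interactions divided into 130 from listed baits to PCGF2 sites, 284 from listed baits to other sites, 27 from other baits to PCGF2 sites and 401 from other baits to other sites. An interaction had entered the table when a fragment reached a CHiCAGO score of at least 5 in any library of the series, including libraries of other cells.

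Each listed bait was defined by a pair of capture probes that end at the DpnII sites of its fragment. The probes of 3 baits that kept few contacts at PCGF2 sites (Fgf9, Hoxd10 and Nptx1) and of 3 that kept most of them (Gata5, Hcrtr1 and Islr2) are shown, to identify the captured fragments at both ends of the range. They are given 5′ to 3′ on the plus strand of GRCm38 with the DpnII site GATC in capitals. The Fgf9 probe lies in an intron of Fgf9 and the Islr2 probe in introns of the overlapping genes Islr and Islr2, whereas the other probes lie between protein-coding genes.
Fgf9 left probe, chr14:58072609-58072678: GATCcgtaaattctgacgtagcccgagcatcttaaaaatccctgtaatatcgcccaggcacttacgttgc
Hoxd10 left probe, chr2:74691239-74691308: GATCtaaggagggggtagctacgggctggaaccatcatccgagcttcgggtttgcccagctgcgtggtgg
Nptx1 right probe, chr11:119547864-119547933: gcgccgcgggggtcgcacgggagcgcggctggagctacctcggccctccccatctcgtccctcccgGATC
Gata5 right probe, chr2:180335654-180335723: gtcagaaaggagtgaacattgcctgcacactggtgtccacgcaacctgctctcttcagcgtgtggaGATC
Hcrtr1 right probe, chr4:130139507-130139576: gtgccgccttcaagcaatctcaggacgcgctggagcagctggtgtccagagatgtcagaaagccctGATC
Islr2 left probe, chr9:58203977-58204046: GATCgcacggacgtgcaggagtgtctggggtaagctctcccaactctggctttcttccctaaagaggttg

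The values are normalized read counts, and 1 weighted read could be recovered as a fixed step for each library. Control had 83656 weighted reads over the 842 interactions and PRC1DEG had 66102. A single interaction held 0 to 7060 reads in Control (median 16) and 0 to 2806 in PRC1DEG (median 17). PRC1DEG had no read at 21 interactions and Control had none at 3. Shares kept are normalized PRC1DEG reads as a percentage of normalized Control reads, and changes are log2 ratios of normalized reads per fragment. Each carries a 95% Wilson interval of the reads where one is given. These intervals cover counting error only, the reads have no molecular identifiers, and with 1 pooled value per group the spread among replicates is not known here. No test between the groups is therefore given.

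Contacts between Polycomb target promoters and PCGF2 sites were lower in PRC1DEG cells, and the 3 other classes of contact were not lower as a whole. Listed baits had 34984 reads at their PCGF2 sites in Control and 12688 in PRC1DEG, so that 33.8% was kept (interval 33.2 to 34.5%). At their other sites they had 21997 and 23493 reads, or 99.6% (97.8 to 101%). The baits outside the list had 2720 and 3133 reads at PCGF2 sites, which was 105% (100.2 to 111%), and 23955 and 26788 reads at other sites, which was 102% (101 to 104%). Only the first of these 4 classes had lost reads beyond counting error. The median log2 change was -1.79 in it (quartiles -2.37 and -1.07), whereas the median over all 842 interactions was -0.00 (quartiles -0.43 and 0.30). With every value under 3 reads set to 3 reads, the median of the 130 was -1.32.

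Over the whole table, 119 interactions (14.1%) were at least 2-fold lower in PRC1DEG and 28 (3.33%) were at least 2-fold higher. Of the 119, 100 were among the 130 contacts between listed baits and PCGF2 sites, 11 were other sites of listed baits, and 8 were other sites of the remaining baits. Beyond counting error, 110 interactions (13.1%) were lower and 27 (3.21%) were higher. The 130 contacts held 90 of those that were lower and none of those that were higher. The log2 change was below 0 at 129 of the 130. The exception joined the Hoxb5 bait to a region near Skap1, a T cell adaptor gene, with 13 reads in Control and 20 in PRC1DEG (log2 change 0.52, interval -0.46 to 1.51).

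The baits outside the list contacted PCGF2 sites from promoters without PCGF2. The 27 such contacts came from 14 baits, and 0 were lower beyond counting error. Their contacted sequences had a median ratio of observed to expected CpG of 0.295, against 0.457 for listed baits. Their summit fragments reached a score of 5 at 3 contacts in Control and 8 in PRC1DEG, so choice by score may differ too. Bait kind and contacted site thus differed together, and the part of each was not tested. The Dus1l and Fasn baits, promoters of a tRNA dihydrouridine synthase and of fatty acid synthase, both reached a PCGF2 region around Mcrip1. Dus1l had 659 reads there in Control and 736 in PRC1DEG (log2 change 0.03, interval -0.12 to 0.18). Fasn had 307 and 347 reads (0.05, interval -0.17 to 0.27). From the bait at Sox2, a pluripotency factor, a PCGF2 site 685 kb away had 134 and 124 reads (-0.20, interval -0.56 to 0.14). The 8 contacts of this class with at least 100 Control reads lay between -0.20 and 0.18, and the intervals of all 8 included 0. Pim3, which encodes a kinase, was the only bait outside the list whose PCGF2 sites were above 100% beyond counting error, with 702 and 855 reads at 4 sites (111%, interval 101 to 123%). Its 28 other sites had a similar share (111%, interval 104 to 119%), so the rise was not particular to its PCGF2 sites. Taken singly, 0 of the 4 were higher beyond counting error.

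The auxin libraries contained 2 step sizes, 1 found at 19 baits and the other at 25, and these sets were treated as normalized separately. The comparison of the 2 kinds of bait could be made within the larger set. There, 16 contacts of 4 listed baits with PCGF2 sites had a median log2 change of -1.65 and kept 35.4% of their reads, whereas 26 PCGF2 sites of baits outside the list had a median of 0.13 and kept 106%. Within the smaller set the 114 contacts of listed baits had a median of -1.80, and the Sox2 contact was the only PCGF2 site of an unlisted bait.

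**Figure D1:**
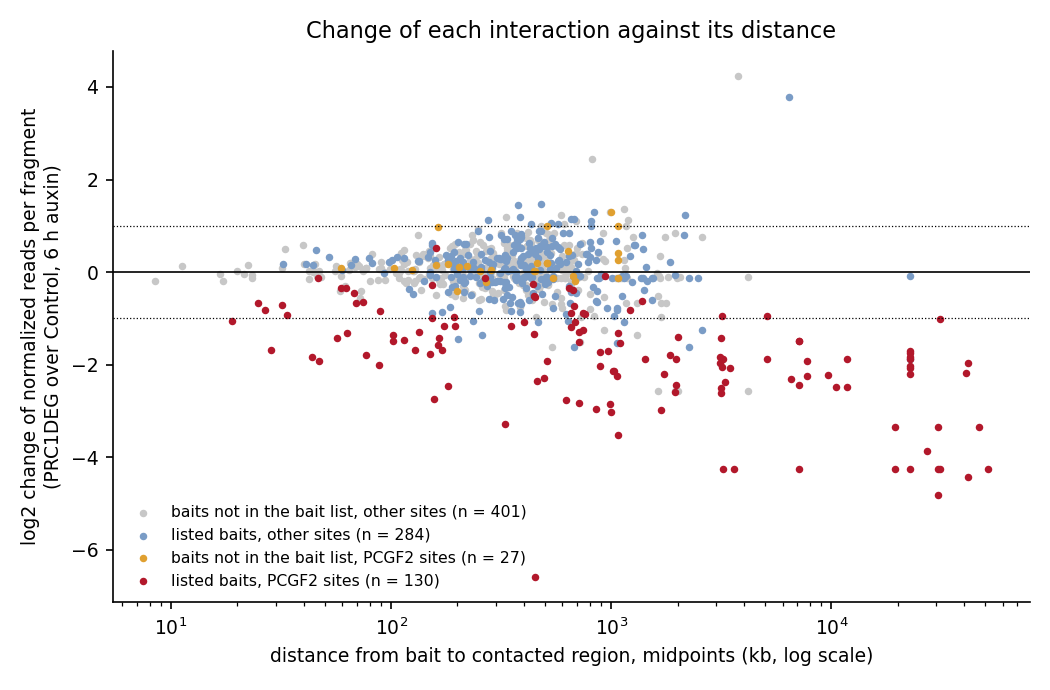
Log2 change of normalized reads per fragment (vertical axis) against the distance between the midpoints of bait and contacted region in kb (horizontal axis, log scale), 1 point per interaction, coloured by bait kind and site kind. The 130 red points (listed baits, PCGF2 sites) lie below 0 in all but 1 case and reach lower values at long distances, whereas the other 3 colours spread around 0. Rows of points at -4.26 and nearby are contacts with no PRC1DEG read, whose value is set by the pseudocount.

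The 22 listed baits with a PCGF2 contact kept between 6.23% and 91.3% of their reads at these sites, with a median of 32.5%. All 22 were below 100%, 18 of them beyond counting error, and 15 were below 50%. Of the 21 baits for which a share could also be computed at other sites, all 21 kept less at PCGF2 sites, and the 2 intervals did not touch in 16. The 5 whose intervals touched were Gata5, Hcrtr1, Igfbp5, Islr2 and Pax7. The Cdh11 and Nlgn1 baits had no PCGF2 contact in the table.

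Nkx2-1, Hoxd10, Nptx1 and Fgf9 were at the low end. The Nkx2-1 bait, promoter of a transcription factor of thyroid, lung and forebrain, had 4279 reads over 13 PCGF2 sites in Control and 809 in PRC1DEG, or 17.7% (16.4 to 19.0%). Hoxd10, a posterior Hox gene, kept 20.5% (447 and 98 reads). Nptx1, which encodes a neuronal pentraxin, kept 20.9% (776 and 174 reads). Fgf9, a growth factor gene, had only 15 and 1 reads at 2 sites, so its 6.23% had an interval of 1.05 to 36.9%. Zfp503, Sp5, Eomes, Nkx2-2 and Dmbx1, all genes of transcription regulators, lay between 21.9% and 25.2%. Above them came Dlx2 (29.5%), Hoxb5 (29.8%), the ETS factor gene Fli1 (35.1%), Hoxb3 (35.9%), Hoxb2 (38.7%) and Isl1 (42.7%).

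At the high end, Islr2, which encodes a neuronal membrane protein with leucine-rich repeats, kept 91.3% at its only PCGF2 site (interval 79.3 to 105%). The site is a 32-fragment region at Sema7a, a semaphorin gene, 268 kb away. It had 390 reads in Control and 381 in PRC1DEG, so depth was not the limit. The lower end of 79.3% covers counting error only, since the spread among replicates is not known. Hcrtr1, an orexin receptor gene, kept 82.3% (42 and 37 reads, interval 53.1 to 128%) and Gata5 kept 77.6% (53 and 44 reads, interval 52.1 to 115%). For those baits a moderate fall was not detectable at this depth. Hoxb1 kept 56.3% (3028 and 1824 reads, interval 53.1 to 59.6%), the most among the 5 Hox baits.

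The other sites of the same baits were spread around 100% but not evenly. Of 23 baits, 6 were below 100% beyond counting error. Sp5, a target gene of Wnt signalling, kept 62.7% at 13 other sites (648 and 435 reads), Fli1 kept 67.1% (395 and 290), Nptx1 kept 74.4% (1038 and 827), Dmbx1 kept 79.0%, Hoxb1 kept 82.7% (4710 and 4168) and Zfp503 kept 87.2%. A further 6 were above 100%, led by Igfbp5 at 134% (802 and 1174 reads) and Hcrtr1 at 122% (1497 and 1952), followed by Ctdspl, Eomes, Dlx2 and Hoxb5. The unlisted baits were closer to 100% at other sites, from 88.5% at Ckap2 to 111% at Pim3. All 6 of the baits that fell at other sites also fell at PCGF2 sites, where each kept less. The same held for all 21 baits with a share at both kinds of site, so it is not particular to the 6.

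**Figure D2:**
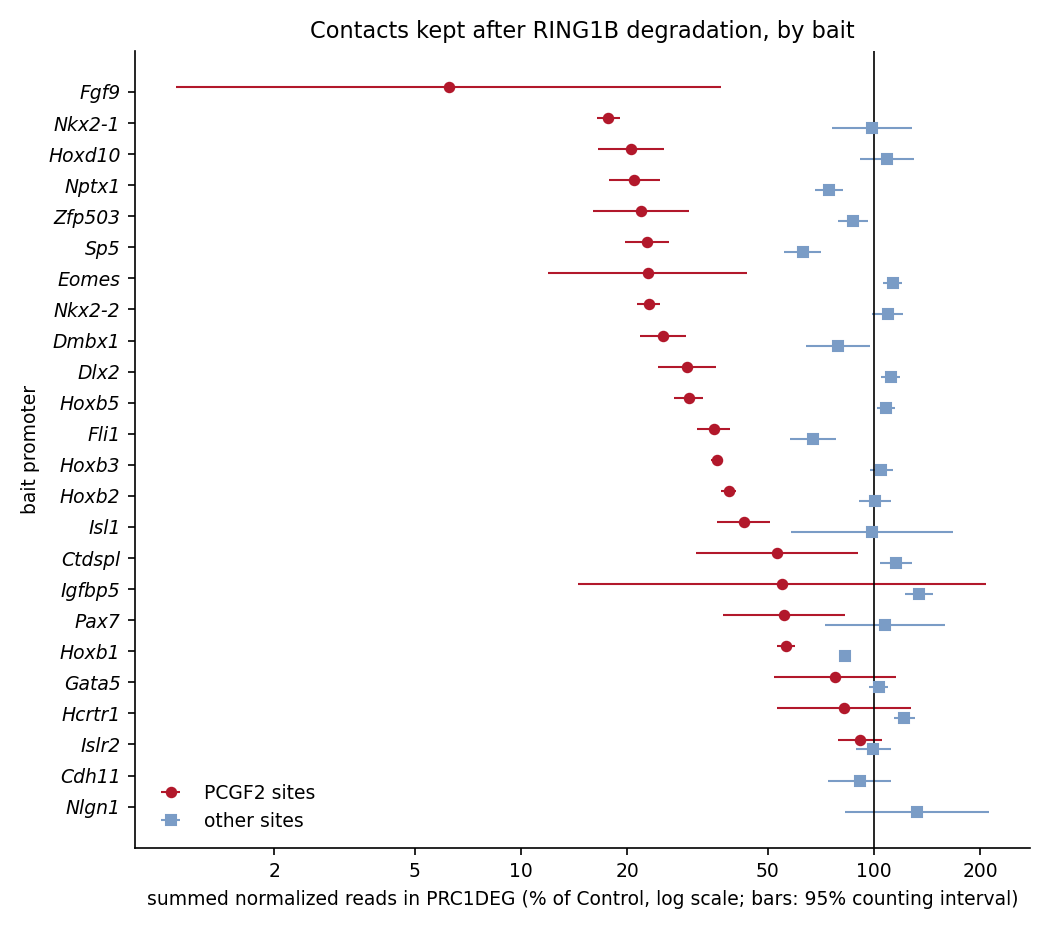
Summed normalized reads in PRC1DEG as a percentage of Control (horizontal axis, log scale) for each listed bait (vertical axis), with 95% counting intervals as bars. Red circles are PCGF2 sites, blue squares are other sites, and the line marks 100%. Red circles run from 6.23% at Fgf9 to 91.3% at Islr2, while the squares lie between 62.7% and 134%. The Fgf9 bait has no square because its only other site had no Control read.

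For each bait the PCGF2 contact with the most Control reads was examined singly. Of these 22 contacts, 17 were lower beyond counting error, 16 were at least 2-fold lower and 7 were lower by more than 2 on the log2 scale. Over all 130 contacts, 69.2% were lower beyond counting error and 76.9% at least 2-fold lower, against 13.1% and 14.1% of the table. Choice by Control reads favours a fall, so these counts are not read as particular to the 22. Among those with at least 100 Control reads, the 2 largest falls joined transcription factor genes to each other. Nkx2-1 contacted Pax9, a paired-box gene 157 kb away, with 2451 reads in Control and 382 in PRC1DEG (log2 change -2.73, interval -2.94 to -2.62). Nkx2-2 contacted Pax1, 181 kb away, with 1365 and 256 reads (-2.47, interval -2.71 to -2.32). Dmbx1, a homeobox gene, contacted Tal1, a blood and endothelial factor gene 884 kb away, with 464 and 140 reads (-1.72, interval -2.10 to -1.55).

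Falls of similar size were measured where the partner was not a transcription factor gene. Sp5 contacted Gad1, which encodes a GABA-synthesizing enzyme, with 717 and 187 reads (-2.01, interval -2.27 to -1.81). Zfp503 contacted Zmiz1, a transcriptional coactivator gene, over 3473 kb with 69 and 15 reads (-2.08, interval -3.13 to -1.54). Smaller falls were found for Isl1 with an intergenic region 401 kb away (317 and 161 reads, -1.08) and for Dlx2 with its neighbour Dlx1 (184 and 94 reads, -1.07).

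Reads were few in the remaining ones. Fgf9 had 11 and 1 reads at Lats2, a Hippo pathway kinase gene, a ratio of 8.49% of Control whose log2 interval ran from -6.15 to -0.97. Not beyond counting error were Gata5 with Bhlhe23 (29 and 26 reads), Hcrtr1 with Adgrb2 (42 and 37), Igfbp5 with Tns1 (5 and 3), Pax7 with Camk2n1 (27 and 18) and Islr2 with Sema7a.

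The contact between Eomes, a T-box gene, and an intron of Ctdspl, a phosphatase gene 448 kb away, had 21 reads in Control and 0 in PRC1DEG. Against a floor of 3 reads this was at least 7.49-fold lower, and the interval for counting error ended at a log2 change of -2.55, which is a weaker bound. The contacted region was a single DpnII fragment of 203 bases that adjoins the Ctdspl bait fragment, so that a captured fragment lay beside each end of this contact. It is shown because it was the contact with the most Control reads among those without a PRC1DEG read, given on the plus strand of GRCm38 with GATC in capitals. The fragment had 49.8% GC and 5 CpG dinucleotides.
Eomes contact, chr9:118927151-118927353: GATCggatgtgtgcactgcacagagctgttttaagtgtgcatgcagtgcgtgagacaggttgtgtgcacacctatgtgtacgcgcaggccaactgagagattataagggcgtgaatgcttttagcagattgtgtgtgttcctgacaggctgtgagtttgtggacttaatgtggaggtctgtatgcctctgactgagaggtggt
The Ctdspl bait in turn contacted a fragment that began 254 bases beyond the Eomes bait, with 24 and 10 reads (-1.34, interval -2.40 to -0.32). A further Ctdspl fragment contacted by the Eomes bait, 449.3 kb away, had 15 and 11 reads (-0.54, interval -1.64 to 0.55) and was not called lower. The share kept by the Eomes bait rested on the fragment without a PRC1DEG read, being 22.8% with it and 42.8% without it.

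The 5 Hox baits held 21785 of the 34984 Control reads at these sites. The Hoxb3 bait had 7060 reads in Control and 2806 in PRC1DEG over a 75-fragment region holding Hoxb5 to Hoxb9 (log2 change -1.42, interval -1.49 to -1.37). Hoxb2 had 4055 and 1735 reads over nearly the same region (-1.31, interval -1.40 to -1.24). In the other direction Hoxb5 had 1340 and 372 reads over Hoxb2 and Hoxb3 (-1.93, interval -2.11 to -1.78). Hoxb1, at the 3′ end of the cluster, had 1384 and 830 reads over Hoxb8 and Hoxb9, a smaller change (-0.83, interval -0.96 to -0.71). The 28 contacts of the 4 Hoxb baits within 1 Mb kept 39.6% of their reads, and 83 other sites of the same baits in the same range kept 93.1%.

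The Hoxb1 contacts within the cluster kept less with distance. At 46.7 kb, the region of Hoxb3 and Hoxb4 had 111 reads in Control and 109 in PRC1DEG, or 91.7%. At 59.0 and 62.2 kb, near Hoxb5 and Hoxb6, 78.9% and 79.1% were kept, and at 69.1 and 74.8 kb, near Hoxb6, 63.1% and 63.6%. Hoxb8 and Hoxb9 at 88.7 kb kept 56.0%, and a region at 165 kb with no start site within 5 kb kept 36.7%. The intervals of neighbouring values overlapped, but that of the nearest site (log2 -0.50 to 0.26) did not overlap that of Hoxb8 and Hoxb9. The order ended there, since the regions at 174 and 193 kb kept 44.3% and 50.3%, and a fragment at Scrn2, 659 kb away, kept 53.4%.

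One fragment was contacted by 3 of the Hoxb baits. The fragment at chr11:96318790-96320153, which holds start sites of Hoxb3 and Hoxb4, had 249 and 168 reads from Hoxb3 (-0.67, interval -0.95 to -0.38). It had 127 and 83 reads from Hoxb2 (-0.71, interval -1.11 to -0.31). From Hoxb1 it had 111 and 109 reads (-0.12, interval -0.50 to 0.26). The intervals of the 3 baits overlapped, so the baits could not be separated at this fragment.

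**Figure D3:**
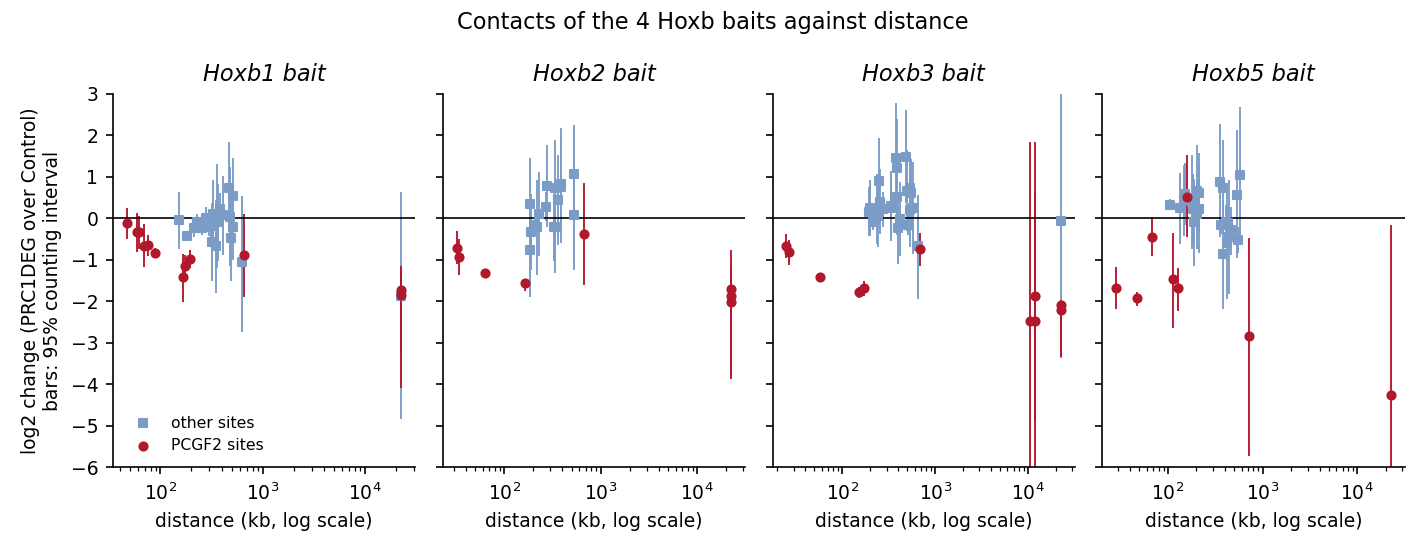
Log2 change of normalized reads per fragment (vertical axis, bars are 95% counting intervals, cut at -6 and 3) against distance in kb (log scale) for the Hoxb1, Hoxb2, Hoxb3 and Hoxb5 baits. Red circles are PCGF2 sites and blue squares other sites. Circles of Hoxb1, Hoxb2 and Hoxb3 start between -0.12 and -0.71 at the nearest site and lie lower at the longest distances, whereas squares lie around 0.

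Across all listed baits the fall at PCGF2 sites was deeper at longer distances. The share kept was 39.9% for 19 contacts under 100 kb (17450 and 7455 reads), 30.0% for 48 contacts between 100 kb and 1 Mb (14872 and 4773 reads), 16.2% for 39 contacts between 1 and 10 Mb (2092 and 363 reads) and 15.9% for 24 contacts over 10 Mb (570 and 97 reads). The medians were -0.83, -1.32, -2.08 and -2.47. Contacts over 10 Mb had a median of only 4.5 Control reads, and with every value under 3 reads set to 3 their median was -0.67. With at least 10 reads over both libraries the 4 medians were -0.83, -1.30, -2.20 and -1.89. With 10 times the pseudocount they were -0.81, -1.13, -1.03 and -0.93. The order of the medians beyond 1 Mb thus depended on how low values were treated. Spearman's rho between distance and change was -0.58 over the 130 contacts and -0.49 over the 98 with at least 10 reads, as a description of contacts that share baits and libraries.

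Most contacts under 100 kb belonged to Hox baits. Without the 5 Hox baits the shares kept were 28.8% (3 contacts), 27.4% (35), 16.3% (35) and 14.3% (10), so the first step was nearly gone and the step at 1 Mb was present. The medians without these baits were -1.79, -1.30, -2.13 and -3.60, so that by medians the first step ran the other way. Of 11 baits with at least 5 PCGF2 contacts, 10 had a lower value at the farthest site than at the nearest, but the intervals of both sites were separate only for Hoxb1 and Hoxb3. The farthest sites of Hoxb5, Hoxd10 and Nkx2-1 had 0 PRC1DEG reads, so that their values were set by the pseudocount, and those of Dlx2 and Fli1 had 4 and 1 reads each. For Nkx2-1 the nearest, at Nkx2-9, had 871 and 265 reads (-1.79), and the farthest, at Bcl11b 51470 kb away, had 4 and 0 reads. Zfp503 had 44 and 17 reads at Kcnma1, a potassium channel gene (-1.40), and 15 and 3 reads at Fezf2, a forebrain factor gene 9644 kb away (-2.22), with intervals that overlapped. Eomes was the exception, through its contact with Ctdspl. Other sites of listed baits also declined with distance. Up to 10 Mb the decline was less steep, from 111% under 100 kb to 96.8% and 86.0%. Over 10 Mb the share was 37.4%, from only 2 contacts with 5 and 2 reads.

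One region could be followed from near and far baits. The region of Dlx1 and Dlx2, homeobox genes of forebrain interneurons, had 184 and 94 reads at its Dlx1 end from the Dlx2 bait itself, 18.9 kb away (-1.07). From Sp5, 1062 kb away, it had 162 and 28 reads (-2.25, interval -3.21 to -2.06). Hoxd10, 3155 kb away, had 159 and 19 reads there (-2.60, interval -3.84 to -2.48). The intervals of the Sp5 and Hoxd10 contacts did not overlap that of the Dlx2 contact, and overlapped each other. The Dlx2 contact was a single fragment, chr2:71527527-71528147, whereas the Sp5 and Hoxd10 contacts covered chr2:71527527-71546341. Width therefore differed together with distance, and the part of each was not tested.

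Summed over all distances, wide contacted regions kept fewer of their reads than single fragments. Contacts of 1 fragment kept 55.4% (63 contacts, 2051 and 1217 reads), those of 2 to 10 fragments 40.2% (17 contacts) and those of more than 10 fragments 32.2% (50 contacts, 31798 and 10980 reads). The medians were -1.48, -1.95 and -1.85. Within a distance range the wider contacts kept less under 100 kb (38.1% against 60.4%) and between 100 kb and 1 Mb (29.2% against 51.2%). Between 1 and 10 Mb they kept 16.0% against 20.6%, with intervals that overlapped. Over 10 Mb the order was the other way, at 16.9% (interval 13.6% to 21.1%) for the wider contacts and 4.06% (interval 1.09% to 15.2%) for single fragments, the latter from 46 and 2 reads, and these intervals overlapped too. Width and depth went together, since single fragments had a median of 7 Control reads. Beyond counting error 48 of the 50 contacts of more than 10 fragments were lower, and 28 of the 63 single fragments. Over all interactions of these widths, 62 of 163 (38.0%) and 32 of 602 (5.32%) were lower, so calls were more frequent at wide regions in the whole table too.

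The fall was spread over the contacted regions and was not limited to their summits. In the 67 PCGF2 contacts of listed baits with more than 1 fragment, the summit fragment kept 31.9% of its reads and the flanking fragments kept 32.6%. The summit held 6.26% of the reads in Control and 6.14% in PRC1DEG. At the 75 other sites of more than 1 fragment the summit kept 103% and the flanks 96.9%.

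CHiCAGO scores, a weighted significance of a fragment's reads over background, come from the same reads and were lower too. A score of 5 in any library, Control included, admitted a contact to the table. The scores are therefore not a separate line of support. At the 130 contacts, 69 summit fragments reached a score of 5 in Control and 3 did so in PRC1DEG, all 3 of which were among the 69. The median score was 5.14 in Control and 0 in PRC1DEG, where 77 of the 130 summits scored 0 against 16 in Control. The highest score was 51.8 in Control, at Nkx2-1 with Pax9, where PRC1DEG had 4.48. In PRC1DEG the highest was 7.04.

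The 3 contacts still called differed from each other. Islr2 with Sema7a had scores of 6.51 and 7.04 and nearly equal reads. Isl1, a LIM homeobox gene, and its intergenic partner at chr13:116704541-116717809 had scores of 14.6 and 6.44, with 46.4% of the reads kept. Nkx2-1 with Nkx2-9 had scores of 32.2 and 6.31, with 871 and 265 reads. At other sites of listed baits 28 summits were called in Control and 30 in PRC1DEG, with 8 in common. At other sites of the unlisted baits 69 and 110 were called with 30 in common, and at their PCGF2 sites 3 and 8.

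Contacts whose summit fragment was called in neither library also fell. These 61 PCGF2 contacts of listed baits had 8794 reads in Control and 3767 in PRC1DEG, or 40.0%, with a median of -1.48, and 33 were lower beyond counting error. Control may have called other fragments of these contacts, so the 61 are not free of choice by Control score. For Dlx2 with Gad1, the Control score was 1.11 at the summit and 8.58 as a mean over fragments. The 69 with a summit called in either library were all called in Control. They kept 31.8%, with a median of -1.91, and 57 were lower. Their choice by a high Control score favours a lower share, so the difference from the 61 is not read as a result.

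**Figure D4:**
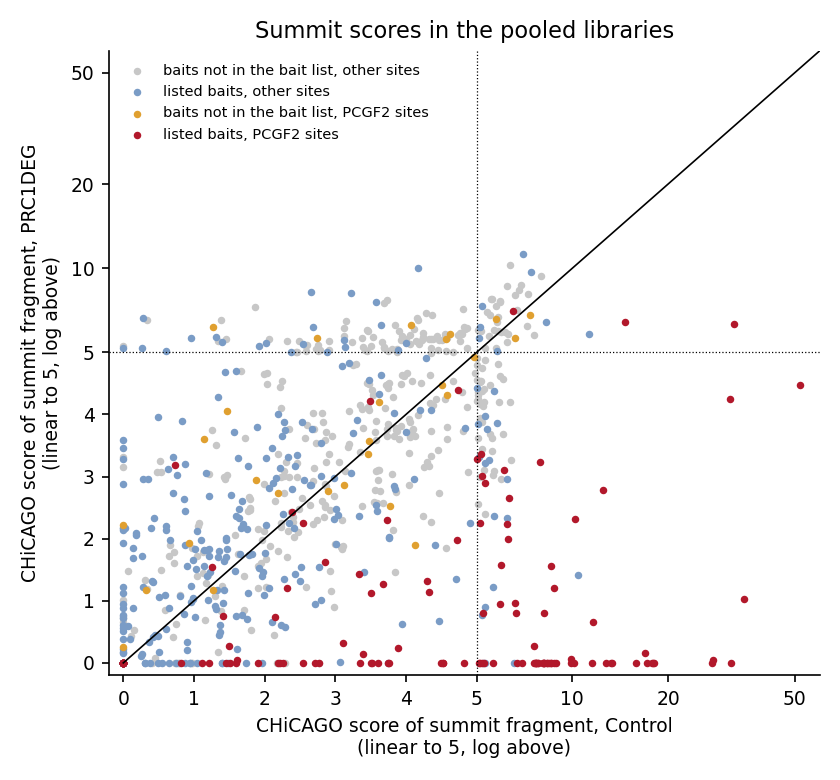
CHiCAGO score of the summit fragment in Control (horizontal axis) and PRC1DEG (vertical axis), both linear to 5 and logarithmic above, 1 point per interaction. Dotted lines mark the score of 5 and the diagonal marks equal scores. Red points (listed baits, PCGF2 sites) lie along the bottom, 77 of them at 0 in PRC1DEG, and 3 lie beyond 5 in both, whereas the other colours follow the diagonal.

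By the genes at the contacted end, Fox and Pax genes had the lowest medians among groups with more than 3 contacts. The 9 contacts with Fox genes, forkhead factors of many tissues, kept 12.4% of their reads (median -2.95) and 7 were lower beyond counting error, against 69.2% of all 130 contacts. Their median distance was 7150 kb, and the part of distance in the groups' values was not tested. Nkx2-1 contacted Foxa1, an endoderm factor gene 1000 kb away, with 676 and 71 reads (-3.02, interval -3.70 to -3.00). Dmbx1 contacted Foxd2 with 227 and 48 reads (-2.14) and Foxe3, a lens factor gene, with 72 and 16 (-2.13). The 4 contacts with Pax1, Pax6 and Pax9 kept 15.6% and all 4 were lower. Nkx2-2 reached Pax6, an eye and forebrain factor gene, over 41514 kb with 44 and 7 reads (-1.96, interval -3.87 to -1.63).

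Cbx genes encode chromobox subunits, some of them of cPRC1 itself, Cbx8 among them. The 8 contacts of this group, from 4 baits, kept 19.1% with a median of -1.97, and all 8 were lower beyond counting error. The Nptx1 bait lies 508 kb from Cbx8 and had 255 and 69 reads there (-1.91). The Hoxb3 bait lies 22700 kb from Cbx8 and had 204 and 34 reads there (-2.20, interval -3.20 to -2.16). The interval of the Nptx1 contact, -2.37 to -1.60, overlapped it.

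The 18 contacts with Hoxb genes kept 39.7% (median -0.82, 14 lower), the highest share of the gene groups with more than 3 contacts, at a median distance of 62.7 kb. The 7 with Hoxd genes, which came from Dlx2 and Hoxd10, kept 23.8% (median -1.84, 4 lower) at a median distance of 3152 kb. Neither count is read as particular to these genes, since 69.2% of all 130 contacts were lower. Hoxd10 had 200 and 60 reads at Hoxd3 (-1.82), and Dlx2 had 38 and 6 reads there over 3190 kb (-2.06). Contacts with Nkx genes kept 29.7% (3 contacts, 3 lower), Dlx1 26.1% (3, 3 lower), T-box genes 35.2% (3, 1 lower) and Lhx1 18.7% (2 contacts with 5 and 1 reads, 0 lower). Zfp503 contacted Wnt5a, a signalling ligand gene, with 66 and 12 reads (-2.30, interval -3.46 to -1.71). The 1 contact with Zic1 had 3 and 0 reads. No contact with a Sox, Gata, sine oculis homeobox, Irx, Fgf, Hoxa or Hoxc gene was among the 130.

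Genes outside these groups moved as well. The 51 contacts near other genes kept 37.6% (median -1.51, 28 lower). Fli1 contacted Barx2, a homeobox gene that was not among the listed groups, with 246 and 36 reads (-2.76, interval -3.40 to -2.40), and this gene was singled out after its value was seen. The 20 contacts without a protein-coding start site within 5 kb kept 37.9% (median -1.78, 17 lower). The 58 with a start site inside kept 31.8% and the 52 with one only within 5 kb kept 55.0%. By the place of the summit, exonic, intronic and intergenic contacts kept 33.3%, 35.9% and 34.5%.

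**Figure D5:**
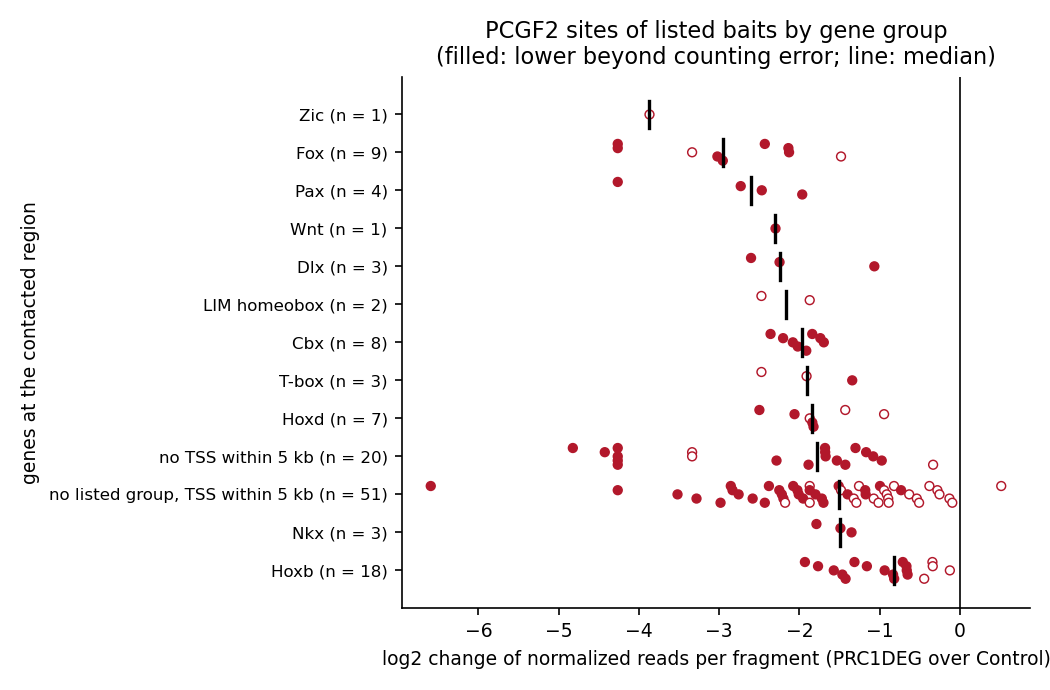
Log2 change of normalized reads per fragment (horizontal axis) at the 130 PCGF2 contacts of listed baits, grouped by the gene at the contacted region (vertical axis). Filled points were lower beyond counting error, open points were not, and black lines are medians, from -3.87 for the single Zic contact to -0.82 for Hoxb. Points at -4.26 and the point at -6.59 had no PRC1DEG read.

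Of the 130 contacts, 40 were not called lower. Of these, 22 had fewer than 10 Control reads, 15 had 10 to 99 and 3 had at least 100. Those 3 were Islr2 with Sema7a and the Hoxb1 contacts at Hoxb3 and Hoxb4 and at Hoxb5 and Hoxb6 (111 and 94 reads, -0.34, interval -0.73 to 0.06). Among the 44 contacts with at least 100 Control reads, 41 were therefore lower. Over all interactions of that depth, these included, 55 of 148 (37.2%) were lower, against 13.1% of the table. No read was found in PRC1DEG at 17 contacts, 16 of which had 1 to 9 Control reads. An example is Hoxd10 with Pax6 over 30979 kb, with 4 and 0 reads (at least 1.43-fold lower against the floor, with an interval that ended at a log2 change of -0.16).

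The contacted sequences of the 130 contacts were richer in CpG than the rest. The median ratio of observed to expected CpG was 0.457 at PCGF2 sites of listed baits and 0.227 at their other sites, and GC content was 52.1% and 44.7%. PCGF2 sites of unlisted baits had a ratio of 0.295 and 52.6% GC. Within the 130, the change was hardly related to the ratio (Spearman's rho -0.08 across contacts, which are not independent). Contacts that were lower beyond counting error had a median ratio of 0.460 and those without a call had 0.410.

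Other sites that fell were few. In all, 20 were lower beyond counting error, 18 of them among the 284 other sites of listed baits (6.34%, against 13.1% of the table). Fli1 had 4 of its 11 other sites, Hoxb1 4 of 22, Sp5 3 of 13 and Zfp503 3 of 21. Fli1 with St3gal4, a sialyltransferase gene 2574 kb away, had 66 and 26 reads (-1.25, interval -2.12 to -0.82). Sp5 had 239 and 139 reads at chr2:70114867-70133163 (-0.85) and 154 and 91 at chr2:70221107-70228042 (-0.83), both intronic. Nptx1 had 794 and 581 reads at Chmp6 (-0.54), and Hoxb1 had 2092 and 1647 at chr11:96526332-96569869 (-0.44).

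Gains were also few. Among other sites 26 were higher beyond counting error. Igfbp5 had 4 of its 15 other sites, Ctdspl 3 of 15, Eomes 3 of 13, Hcrtr1 3 of 14 and Hoxb3 3 of 24. The 5 that stood farthest from 0 included Hoxb3 with Nfe2l1, a stress response factor gene, with 8 and 24 reads (1.46, interval 0.36 to 2.61), Hoxb3 with an intronic fragment at chr11:96718944-96720359, with 6 and 18 reads (1.45), and Aplp1 with Dmkn, with 12 and 31 reads (1.19). Of these 5, those with the most reads were Hoxb5 with chr11:96398807-96420712, with 926 and 1243 reads (0.32, interval 0.20 to 0.45), and Igfbp5 with chr1:73737831-73759758, with 192 and 287 reads (0.43, interval 0.19 to 0.71). The share of higher calls among the 284 other sites of listed baits was 6.69%, against 3.21% in the table, and the share of lower calls was 6.34%, against 13.1%.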

How the data were processed

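CaptureC profiles of the PRC1DEG and Control groups were taken from 1 deposited table of 842 interactions. The authors aligned paired-end reads to mm10 with HiCUP and Bowtie2, merged the 3 replicates, obtained weighted reads and scores with CHiCAGO, kept fragments that scored 5 or more in at least 1 library of the series and joined those fewer than 10 DpnII fragments apart. Deposited signal values are sums of weighted reads, scaled by promoter number and by the total on captured promoters. A deposited score is that of CHiCAGO, as a sum or for the summit fragment. The file also holds 8 value columns of other cells, which were not used. The authors deposited a second file with the 24 listed baits and their 48 probes, all of which matched GRCm38 at their places. Genes are protein-coding ones of GENCODE M21 (basic set).

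Sums were divided by the number of fragments, and log2 ratios were computed with a pseudocount of 0.000350, the smallest value above 0. For low values this pseudocount shrinks the ratio, so that some intervals, which come from the reads alone, are centred below it. Steps in the values gave the worth of 1 weighted read, 0.00159 in Control and 0.00149 in PRC1DEG for 19 baits and 0.00171 and 0.00156 for the other 25. At a tolerance of 0.1, 100% of 3368 values were whole reads. A 95% Wilson interval of the PRC1DEG share of reads was set against the share expected from these steps, and a contact was called lower or higher beyond counting error where it excluded equality. The interval was tested on simulated data. Scripts used Python 3.11.15, pandas 2.3.3, NumPy 2.4.6, SciPy 1.17.1, matplotlib 3.10.9 and samtools 1.23.1.

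The classes, gene groups and the rule for single contacts (for each listed bait the PCGF2 contact with the most Control reads, and the 5 lower and 5 higher other sites whose interval lay farthest from 0) were chosen with earlier results of these data known. Some contacts that meet the rule are not reported here. Genes are those with a start site in the region, or else within 5 kb. The comparisons of near with far sites, of regions seen from several baits, of distance within width and of deep contacts without a call were added after the values had been seen. Alternatives were the pseudocount, a minimum of 10 reads, the summit alone, sums, a floor of 3 reads, centring on other sites, a 99% interval, score thresholds of 3 and 10, and, added after seeing the data, each set of baits alone and the listed baits without the Hox baits.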

Additional observations from a re-analysis of the deposited data

How the results depend on the processing

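No paired analysis was possible because each group has 1 pooled value, which also means that no replicate could be left out. At PCGF2 sites of listed baits every alternative run kept the medians below 0. The median of the 130 PCGF2 contacts of listed baits (-1.79) was -1.01 with 10 times the pseudocount, -1.40 at the summit alone and -1.32 with values under 3 reads set to 3. In the same order, the median for contacts whose summit was called in neither library was -0.80, -1.07 and -1.17. With 10 times the pseudocount the medians were -1.13 at 100 kb to 1 Mb, -1.03 at 1 to 10 Mb, -0.93 over 10 Mb, -0.93 for 1 fragment, -1.25 for 2 to 10 and -1.07 for over 10 fragments. At the summit they were -1.45 at 1 to 10 Mb, -1.65 over 10 Mb and, for over 10 fragments, -1.54. With at least 10 reads, over 10 Mb gave -1.89 and 1 fragment -0.89. With values under 3 reads set to 3, they gave -0.67 and -0.51, and over 10 fragments gave -2.17, against -2.03 for sums. PCGF2 sites of unlisted baits had -0.20 in the smaller set of baits alone (1 contact), and their other sites had -0.0074 when centred on other sites, whose median is 0.07. The 119 contacts at least 2-fold lower became 72 with 10 times the pseudocount, and the 28 higher became 6, or 16 at the summit and 14 for sums. The 27 higher beyond counting error became 11 with a 99% interval, and the 110 lower became 87. Control calls numbered 22 at a score of 10. PRC1DEG calls numbered 13 at a score of 3 and 0 at a score of 10 or with the mean score. Shares per bait changed beyond their interval for 12 baits when the deepest contact was left out, and the median share was 32.5% over 22 baits and 28.2% over the 19 with more than 1 contact.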
